A study of Mus musculus with 9 samples.

Results

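The genes of the CD4 and CD8 coreceptors, Cd4, Cd8a and Cd8b1, were followed through normal mouse thymus, thymus tumor and a thymus tumor whose label calls it XIST resistant, XIST being the long noncoding RNA by which one X chromosome is silenced. They were chosen as every probe set whose only gene symbol was one of these 3 names, which gave 3 of 18193 genes and 8 of 34945 probe sets with a single symbol. Cd4 had 2 probe sets, Cd8a had 5 and Cd8b1 had 1. Every probe set lay below its level in normal thymus on all 6 tumor arrays, and 6 of the 8 lay under the array median on each of them.

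Each group comprised 3 Affymetrix Mouse430_2 arrays of total RNA from tissue. The labels give the organism and the tissue of each group, while strain, genotype, age and tumor origin were not given in the sources used here. Resistance to XIST is the only difference that the labels name between the tumor groups. Whether the 3 arrays of a group stand for 3 animals is not in the labels, so the p-values reflect array-to-array spread only, and that spread may be technical.

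CD4 and CD8 are surface glycoproteins that bind MHC molecules beside the T cell receptor and bring the kinase Lck to it. CD4 is a single chain that binds MHC class II, whereas CD8 binds MHC class I as a pair of chains, CD8 alpha with CD8 beta on most thymocytes or CD8 alpha with itself. Early thymocytes carry neither coreceptor and are called double-negative, then pass through an immature single-positive stage, usually with CD8, to the double-positive stage that makes up most of a normal thymus, and finally keep one coreceptor as CD4+ or CD8+ single-positive cells.

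Values are MAS5 signals in arbitrary units, and changes are differences of log2 signal with their standard error (SE) from limma, fitted over 24873 probe sets. A probe set was called where its Benjamini-Hochberg adjusted p was under 0.05. Without detection calls, a probe set that stayed below the median of each of a group's 3 arrays was taken as having only a bound there, and its change is written as "at least N-fold", against the array medians. An adjusted p beside such a bound belongs to the fitted change and does not test the bound. Array medians were 13.9 to 25.8. On the first array of each group and on resistant tumor 2, 4 arrays in all, the poly-A spike-in controls were near background, with means of 2.01 to 2.95 and medians of 23.6 to 25.8, and on the other 5 the means were 141 to 237 and the medians 13.9 to 17.8. Both sets of arrays hold all 3 groups. Signals of different probe sets are not on one scale, so that levels are compared between arrays only.

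Cd4 encodes the class II coreceptor. Its probe set 1419696_at gave signals of 968, 1068 and 1240.4 in normal thymus, 13.9, 24.2 and 14.4 in tumors, and 6.08, 17.9 and 17.7 in resistant tumors. All 6 tumor arrays were far below the 3 normal arrays, and only tumor 2 and resistant tumor 3 reached their array's median. The signal was 64.1-fold lower in tumors (95% interval of the log2 change -7.00 to -5.00, n = 3 arrays per group, limma adjusted p = 1.08e-05), and it fell by 6.45 ± 0.41 on the log2 scale in resistant tumors (SE, adjusted p = 8.21e-06), which is 87.3-fold. With the 2 arrays of each tumor group that lay under their median set to it, the folds were 51.8 in tumors and 50.3 in resistant tumors. Within the arrays without spike-ins the tumor change was -6.12, and within those with them it was -5.95.

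The second Cd4 probe set, 1427779_a_at, gave 86.6, 91.3 and 94.1 in normal thymus. It lay between 0.56 and 0.724 in tumors and between 0.888 and 1.52 in resistant tumors, under the array median on all of them. It was therefore at least 5.19-fold lower in tumors (limma adjusted p = 0.000112) and at least 4.37-fold lower in resistant tumors (adjusted p = 0.000134). These p-values belong to the fitted changes, for which every signal of the tumor group was set to 1 and so had no spread. The smaller bound of this probe set goes with its lower signal in normal thymus, which leaves less room above the array median. Both Cd4 probe sets thus separated normal thymus from the tumor groups without overlap. In these tissue samples, fewer cells with a coreceptor and less coreceptor RNA per cell cannot be told apart.

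**Figure D1:**
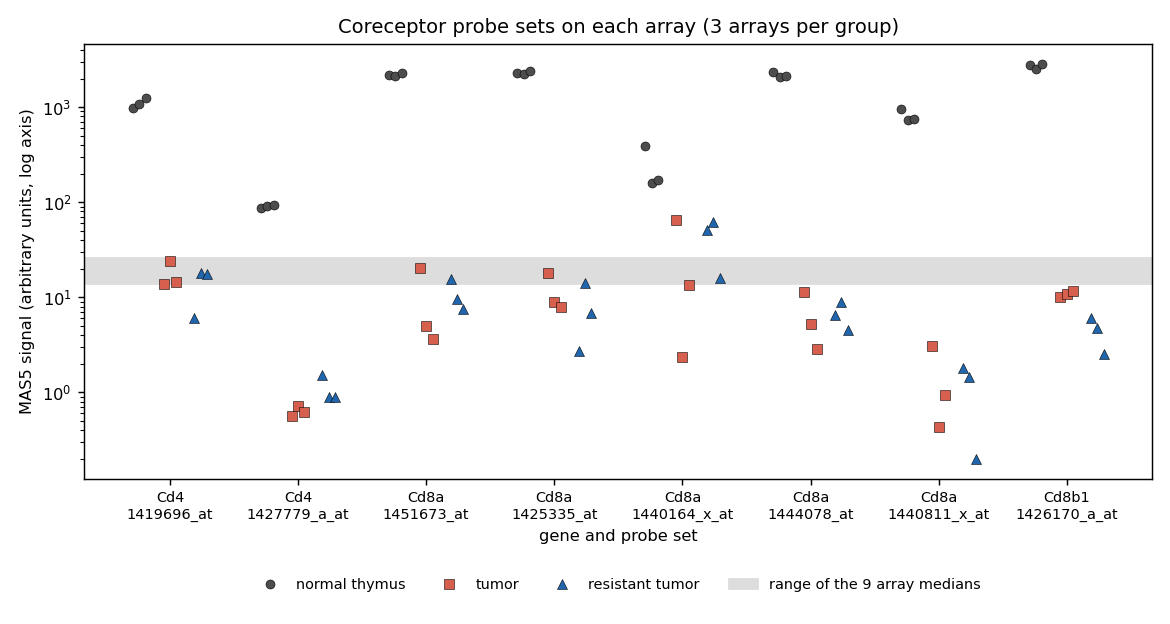
MAS5 signal (arbitrary units, log axis) of the 8 coreceptor probe sets on each of the 9 arrays, with 1 point per array and the grey band marking the array medians of 13.9 to 25.8. Normal thymus stands above every tumor array for each probe set, and only Cd4 1419696_at and Cd8a 1440164_x_at have tumor arrays that reach their own median.

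Cd8a encodes CD8 alpha, the chain that binds MHC class I and, through its tail, Lck. The signal of its probe set 1451673_at was 2176, 2134 and 2261 in normal thymus, 20.6, 5.01 and 3.63 in tumors, and 15.6, 9.61 and 7.53 in resistant tumors. No tumor array reached its median, which made the gene at least 125-fold lower in tumors (limma adjusted p = 1.08e-05) and at least 106-fold lower in resistant tumors (adjusted p = 1.57e-05). Probe sets 1425335_at and 1444078_at gave bounds of at least 132-fold and at least 124-fold in tumors, and at least 111-fold and at least 105-fold in resistant tumors. For 1440811_x_at, with 741 to 947 in normal thymus and 0.2 to 3.06 over the 6 tumor arrays, the bounds were 46.1-fold and 38.9-fold. These 4 probe sets therefore differed in their bound and not in the side on which any array lay.

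The remaining Cd8a probe set, 1440164_x_at, kept a signal on part of the tumor arrays. It gave 387, 159 and 170.2 in normal thymus, 64.2, 2.37 and 13.4 in tumors, and 51.1, 62.4 and 15.9 in resistant tumors. The 3 highest tumor values were those of the 3 tumor arrays without spike-ins, and the highest normal value was also that of the array without them. Its change was -4.11 ± 1.03 in tumors (limma adjusted p = 0.0129) and -2.56 ± 1.03 in resistant tumors (adjusted p = 0.0829), although the groups did not overlap in either comparison. With spike-in set fitted as a block the change in resistant tumors was -3.29, with an adjusted p of 0.00137. The name ending in x_at marks a probe set with probes that may also match other transcripts. Whether other transcripts contribute to it was not tested.

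For Cd8a, the 250 bases before the transcription start are shown because the Cd8 genes fell together and this window is where general promoter elements would lie. The sequence is from RefSeq (GRCm38.p6, forward strand) at chr6:71373177-71373426, 5′ to 3′, with matches to the E-box letters CANNTG in capitals. E-boxes are bound by the E proteins, among them those encoded by Tcf3 and Tcf12.

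Cd8a promoter: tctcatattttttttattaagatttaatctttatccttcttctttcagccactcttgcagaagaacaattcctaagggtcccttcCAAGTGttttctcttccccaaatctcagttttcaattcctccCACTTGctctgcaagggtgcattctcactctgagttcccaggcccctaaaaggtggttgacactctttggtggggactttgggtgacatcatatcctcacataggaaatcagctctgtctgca

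The E-box letters, which read the same on both strands, occurred 2 times, at bases 86 to 91 (CAAGTG) and 128 to 133 (CACTTG) of the window. They occur in 66.2% of 32851 promoter windows of the same length. The RUNX letters TGTGGT were on neither strand of the window and occur in 14.0% of windows. The same held for the letters of the GATA family, AGATAA, which occur in 9.99% of windows, and for the ETS letters CCGGAA, in 12.0%. It also held for the TATA box as TATAAA, in 12.4% of windows, and for the T cell factor letters CTTTGA, in 13.8%. The known control elements of the Cd8 genes lie largely outside such a window, and a missing match says only that these letters are not in it. Windows for Cd4 and Cd8b1 were not used here.

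Cd8b1 encodes CD8 beta, the partner chain that most CD8+ thymocytes pair with CD8 alpha. Its only probe set, 1426170_a_at, gave 2801, 2518 and 2859.6 in normal thymus, 9.99, 10.8 and 11.8 in tumors, and 6.02, 4.71 and 2.52 in resistant tumors. All 6 tumor arrays were under their median. The bound was at least 156-fold in tumors (limma adjusted p = 5.51e-07) and at least 131-fold in resistant tumors (adjusted p = 3.45e-07).

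In all, 8 of 8 coreceptor probe sets were called lower in tumors, where 16.2% of the probe sets tested were called lower and 34.7% in either direction, and 7 of 8 in resistant tumors, where the shares were 16.9% and 35.7%. Within the arrays without spike-ins and within those with them, every tumor array lay below every normal array for each of the 8. This follows from the lack of overlap over all arrays, given next, and is no separate check. The groups did not overlap for any of the 8 in either comparison, against 23.1% and 23.6% of probe sets with the tumor group lower. All 8 passed the filter on low values, all but Cd8a 1440164_x_at only through normal thymus. These counts, and the p-values given above against normal thymus, are therefore a description. Both comparisons share the 3 arrays of normal thymus.

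Between resistant tumor and tumor, 0 of 8 coreceptor probe sets were called by limma, and 1 had an unadjusted p under 0.05, where 0.145% of all probe sets tested were called in either direction. For Cd4 1419696_at the difference was -0.44 ± 0.41 (adjusted p = 0.919), with a 95% interval of -1.44 to 0.55 on 6 residual degrees of freedom and 4 of the 6 arrays under their median, and without resistant tumor 1, the array with the lowest signal, it was 0.072. For Cd8a 1440164_x_at it was 1.55 ± 1.03 (adjusted p = 0.919, interval -0.99 to 4.08). These intervals include changes of more than 1 on the log2 scale.

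Cd8b1 was the probe set with an unadjusted p under 0.05. Its resistant values of 2.52 to 6.02 lay below the tumor values of 9.99 to 11.8 without overlap, as for 5.19% of probe sets. Both groups lay under the array median throughout, so that no size of the difference is given. The limma p was 0.000977 unadjusted and 0.190 adjusted, and with spike-in set fitted as a block the adjusted p was 0.0313, a call between signals that are all under the median.

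The 3 coreceptor genes, each by its brightest probe set, correlated over the 9 arrays with r of 0.952 for Cd4 and Cd8a, 0.974 for Cd4 and Cd8b1 and 0.965 for Cd8a and Cd8b1. This is a description, since the arrays form 2 clusters, normal thymus and tumors. Cd8a and Cd8b1 were under the median on each tumor array, so that their differences among tumor arrays carry no order.

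Genes whose level followed a coreceptor most closely were taken as the 5 with the highest correlation over the 9 arrays among 11628 other genes. For Cd4 they were Tmem131l (r = 0.997), Dgke, Dock2, Clk3 and Arid3b. For Cd8a they were Psmb11 (r = 0.996), the thymoproteasome subunit of cortical thymic epithelial cells, Synpo2, Jchain, Lpar6 and Ikzf2. For Cd8b1 they were Plekhb1 (r = 0.997), Crebrf, Cd247, Esco1 and 2610035D17Rik. Between 96 and 129 genes exceeded 0.98 for each coreceptor, so the order among them carries little. Their changes differed in size from the coreceptors', with Tmem131l at -1.08 and Dock2 at -1.37 in tumors and Jchain at least 25.9-fold lower.

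General T cell genes were read beside the coreceptors on the same arrays, to show how much T lineage RNA the tumors held. Of the 12 genes of this list 10 had a probe set, and 5 were called lower and none higher in tumors, where 18.1% of all genes were called lower. Cd3d, Cd3e and Cd3g, which encode the invariant CD3 chains of the T cell receptor complex, changed by -0.10, 0.19 and 0.24 in tumors and were not called. Cd3e gave 1439, 1252 and 1489.9 in normal thymus, 1544, 1679 and 1541 in tumors, and 1103, 1670.3 and 1344 in resistant tumors. Its tumor values lay just above normal thymus and its resistant values spread on both sides of it. Lat, an adaptor of the receptor (-0.11), and Ptprc, the phosphatase CD45 (-0.19), were not called either by their brightest probe set, and of the 2 probe sets of Ptprc the dimmer was called lower in tumors (-1.17).

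Thy1, a T lineage surface protein, Zap70, the kinase recruited to the activated receptor, and Cd247, the zeta chain, fell by 0.33, 0.71 and 1.85. For Zap70 only 1 of 3 probe sets was called in each comparison with normal thymus, and for Cd247 3 of 3. Cd5, an inhibitory receptor that rises with receptor signalling, and Cd28, the costimulatory receptor, fell by 5.05 ± 0.35 and 6.01 ± 0.49 (limma adjusted p = 1.21e-05 and 2.85e-05). Cd28 gave 787 to 864 in normal thymus and 7.48 to 33.9 over the 6 tumor arrays, a drop of the size of that of Cd4. In resistant tumors 5 of the 10 were again called lower, where 19.2% of all genes were. There Cd28 was at -5.60 and Cd5 at -4.23, and Cd3d, Cd3e and Cd3g were at -0.30, -0.04 and 0.10. The signs of Cd3d and Lat in tumors flip when array medians are set equal, and that of Cd3g in resistant tumors flips under quantile normalization.

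**Figure D2:**
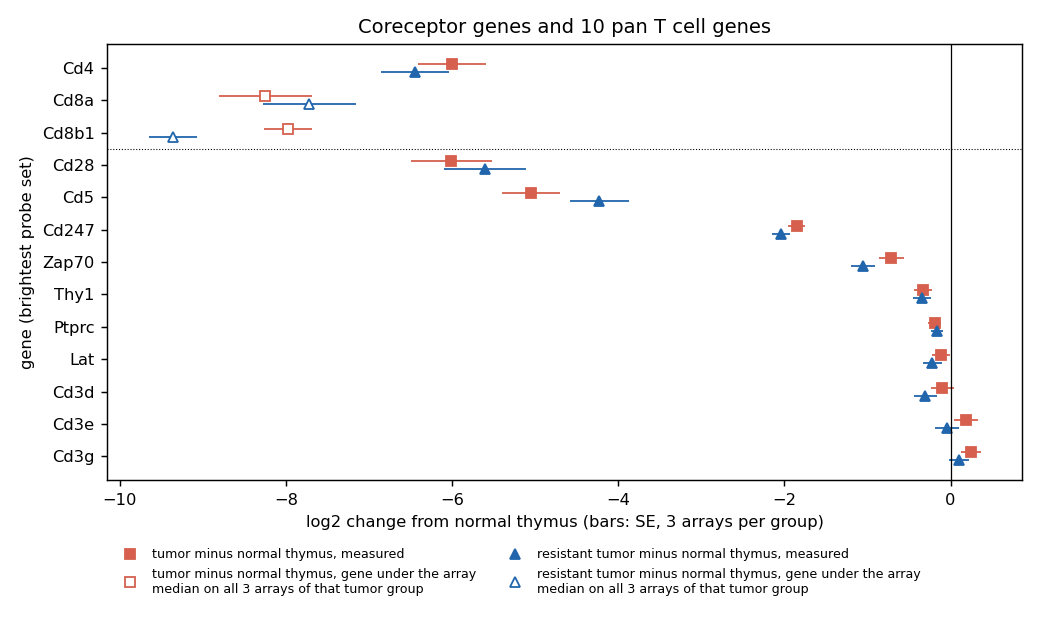
Log2 change from normal thymus (x axis, bars are SE, 3 arrays per group) of the 3 coreceptor genes and 10 pan T cell genes (y axis), in tumors (squares) and resistant tumors (triangles). Open symbols are fitted values of genes below the median of every array of that tumor group, which have only a bound, and the CD3 genes lie between -0.30 and 0.24 while Cd4 lies near Cd28.

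The level of each coreceptor was also taken relative to the mean log2 signal of the 10 pan T cell genes on the same array. Cd4 stood at -0.59, -0.40 and -0.29 in normal thymus, Cd8a at 0.58 to 0.60 and Cd8b1 at 0.84 to 0.94. Since Cd8a and Cd8b1 lay under the median of every tumor array, and Cd4 under that of 4, coreceptor signals under the median were set to it, which gives an upper limit for the tumor arrays. On that scale Cd4 stood between -5.13 and -4.49 over the 6 tumor arrays, and Cd8a and Cd8b1, both at the limit, between -5.34 and -4.49. No tumor array overlapped normal thymus. At these limits the shifts were -4.28 for Cd4, -5.46 for Cd8a and -5.77 for Cd8b1 on the log2 scale, so that the drops were at least of these sizes. The exact two-sided permutation p was 0.0238 for each (6 against 3 arrays, the smallest it allows), and 0.0476 adjusted over 6 tests. This p only restates the lack of overlap and adds no support. For Cd8a and Cd8b1 every tumor value was the limit, and each gene's probe set passed the filter only through normal thymus.

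Between resistant tumors and tumors the shift of Cd4 was 0.04 on this scale, and -0.45 with its signals as deposited. With 3 against 3 arrays the exact test cannot go below 0.1. The coreceptor genes were thus lower relative to the mean of the 10 pan T cell genes on every tumor array. That mean joins genes that changed little, such as the CD3 genes, with Cd5 and Cd28, which fell steeply. With signals as deposited, the Cd4 shift of both tumor groups from normal thymus was -4.83 against all 10 genes. It was -5.79 without Cd5 and Cd28, and -6.24 against the CD3 genes alone. Cd28 fell about as far as Cd4, so the result does not extend to Cd4 against Cd28.

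Factors known to act on the Cd4 and Cd8 genes were taken as a list of 30 genes, of which 28 had a probe set and were tested. In tumors 3 were called higher and 9 lower, where 22.2% of all genes were called higher and 18.1% lower (40.3% in all), with a median change of -0.01 against 0.05 over all genes. In resistant tumors 4 were higher and 10 lower (22% and 19.2% of all genes, 41.2% in all), with a median of -0.10 against 0.06. With equal array medians only 4 calls in tumors and 5 in resistant tumors were left, and the median in tumors was 0.18. The share called in either direction was thus near that of all genes, with fewer higher and more lower calls than over all genes, a difference that was not tested.

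Runx1, which with its partner Cbfb represses Cd4 in double-negative cells through the Cd4 silencer, gave 175, 207 and 212 in normal thymus, 577, 826 and 675 in tumors, and 563, 616 and 478 in resistant tumors. It rose by 1.80 ± 0.16 in tumors (limma adjusted p = 4.34e-05) and by 1.48 in resistant tumors (adjusted p = 0.000128), with every tumor array above normal thymus. Of its 6 probe sets tested, 4 were called higher in tumors and 3 in resistant tumors, and none lower. Cbfb itself was not called (0.13 and -0.10).

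Runx3, which represses Cd4 and activates the Cd8 genes in the CD8 lineage, gave 56.2 to 91.6 in normal thymus, 65.5 to 118 in tumors and 105, 124 and 296 in resistant tumors. Its change was 0.29 ± 0.39 in tumors (limma adjusted p = 0.622) and 1.08 ± 0.39 in resistant tumors (adjusted p = 0.0566). With spike-in set fitted as a block the latter was 1.38 with an adjusted p of 0.000180, and resistant tumor against tumor was 1.09 with an adjusted p of 0.0313, against 0.79 and 0.895 without the block.

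Zbtb7b, which encodes the CD4 lineage factor ThPOK, gave 61.5, 46.6 and 49.6 in normal thymus, 4.16, 17.2 and 20.2 in tumors, and 16.3, 11.9 and 14.4 in resistant tumors. It fell by 2.20 ± 0.54 in tumors (limma adjusted p = 0.0117) and was at least 2.52-fold lower in resistant tumors (adjusted p = 0.0236), but only 1 of its 2 probe sets was called, and with equal array medians neither call was left. Gata3 and Tox act in CD4 lineage development. Gata3 was not called (0.01 and -0.07), and Tox fell by 1.01 and 1.10, with 2 of 3 and 3 of 3 of its probe sets called.

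Satb1, a chromatin organiser needed for expression of the coreceptor genes, gave 3735, 2929.7 and 2979 in normal thymus, 1384, 1435 and 1086 in tumors, and 974, 1006 and 921 in resistant tumors. It fell by 1.31 ± 0.13 and 1.72 ± 0.13 (limma adjusted p = 9.46e-05 and 2.13e-05), and all 5 of its probe sets were called lower in both. Between resistant tumor and tumor the brightest was at -0.42 and was not called (adjusted p = 0.524), while 1 of the 5, a dimmer one, was called lower (-1.50, limma adjusted p = 0.0255). Ikzf1, the zinc finger factor Ikaros, fell from 1426 to 1618 in normal thymus to 657 to 715 in tumors and 642 to 752 in resistant tumors, by 1.13 ± 0.10 and 1.10 ± 0.10, and its relative Ikzf3 by 1.42 and 0.95. For Ikzf1 1 of 2 probe sets was called in each comparison, and for Ikzf3 3 of 3 in tumors and 1 of 3 in resistant tumors. The ETS factors Elf1 and Ets1 fell by 1.13 and 0.62 in tumors and by 1.39 and 0.66 in resistant tumors, with every probe set of both called lower.

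Stat5b, an effector of interleukin 7 signalling at the Cd8 genes, fell by 0.78 and 0.92, and the methyl-CpG binding protein gene Mbd2 by 0.75 and 0.87. Lef1, a T cell factor, rose by 0.94 and 0.80, and Dnmt1, the maintenance DNA methyltransferase, by 0.50 and 0.44. For Mbd2 and Lef1 only 1 of 2 probe sets was called in each comparison. For Stat5b it was 2 of 2 in tumors and 1 of 2 in resistant tumors, and for Dnmt1 3 of 3 in both. Bcl11b (-0.40 and -0.59) and the E protein gene Tcf12 (0.23 and 0.52) were called in resistant tumors by their brightest probe set, which missed the threshold in tumors, and their differences between the tumor groups, -0.19 and 0.29, were not called. In tumors 1 of 4 probe sets of Bcl11b was called lower (-0.61) and 2 of 5 of Tcf12 higher (0.65 and 1.19). Myb, Patz1, Zbtb7a, Tcf3, Smarca4, Smarce1, Chd4, Hdac1, Hdac3, Zfp281 and Stat5a lay between -0.43 and 0.36 in both comparisons and were not called. By the brightest probe set none of the 28 was called between resistant tumor and tumor, where 0.224% of all genes were. With equal array medians, Ikzf1, Ikzf3, Ets1, Elf1, Mbd2, Stat5b and Dnmt1 were not called in tumors, with their directions kept.

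**Figure D3:**
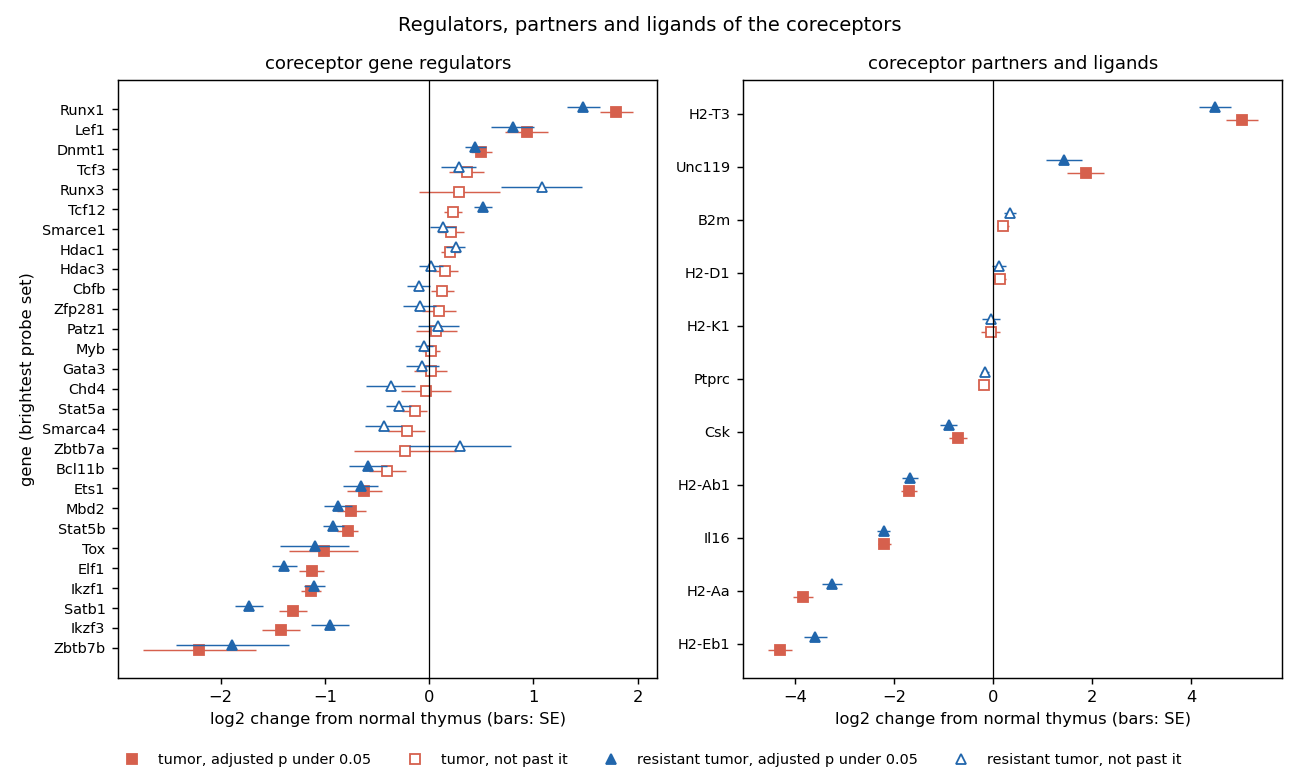
Log2 change from normal thymus (x axis, bars are SE, 3 arrays per group) of 28 regulators of the coreceptor genes (left) and 11 partners and ligands (right), in tumors (squares) and resistant tumors (triangles), filled where the adjusted p was under 0.05. Runx1 rises by 1.80 in tumors while Satb1 and Zbtb7b fall, and H2-T3 rises while the class II genes fall.

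Partners and ligands of the coreceptors were a list of 12 genes, 11 of them tested, and Lck was not analysed here. In tumors 2 were called higher and 5 lower, and the same counts held in resistant tumors, against 22.2% of all genes higher and 18.1% lower in tumors and 22% and 19.2% in resistant tumors. The median changes were -0.19 and -0.16. The class II genes, whose products CD4 binds, fell. H2-Eb1 gave 1060.0 to 1231 in normal thymus, 50.3 to 70.6 in tumors and 65.3 to 131 in resistant tumors, a drop of 4.31 ± 0.24 and 3.58 ± 0.24 (limma adjusted p = 3.86e-06 and 1.09e-05). The changes were -3.83 and -3.25 for H2-Aa and -1.71 and -1.69 for H2-Ab1, and all 4 and all 3 of their probe sets were called. Class II is made by thymic epithelium, dendritic cells and B cells, among other cells, rather than by mouse thymocytes. Summed signals of markers of those 3 were lower in the same tumors, while the sums of macrophage markers overlapped normal thymus (values with the cell markers). The part of any of these cells in the class II result was not tested.

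The class I genes H2-K1 and H2-D1, whose products CD8 binds, and B2m, their light chain, were not called by their brightest probe set (-0.05, 0.13 and 0.20 in tumors), although 1 of 2 probe sets of B2m was called higher in resistant tumors (0.39). H2-T3, which encodes the TL antigen, a nonclassical class I molecule that binds CD8 alpha pairs, gave 43.6, 17.6 and 18.0 in normal thymus, 772, 825 and 749.6 in tumors, and 562, 647 and 422 in resistant tumors. It rose by 5.02 ± 0.32 and 4.48 ± 0.32 (limma adjusted p = 8.12e-06 and 1.52e-05), and both of its probe sets were called higher. Class I genes are near-identical copies in part, and probes may be shared. Of the 7 probe sets of H2-D1, 3 were called higher in each comparison and changes in tumors ranged from 0.04 to 3.59, so the values of single class I genes are uncertain. The strain of each group was not given, so that a strain difference in these genes cannot be told apart from a change in tumors.

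Il16, whose product is a ligand of CD4, gave 865 to 927 in normal thymus, 172 to 214 in tumors and 180.4 to 218 in resistant tumors, and fell by 2.19 and 2.21. Of its probe sets, 3 of 3 were called in tumors and 2 of 3 in resistant tumors. Csk, the kinase that restrains Lck, fell by 0.70 and 0.90, and Unc119, an activator of Lck, rose by 1.87 and 1.43. Ptprc, the phosphatase that activates Lck, was called lower in tumors by 1 of its 2 probe sets, as given with the T cell genes.

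Lag3, the relative of CD4 that also binds class II and lies next to it on chromosome 6, gave 25.9, 41.2 and 42.0 in normal thymus, 7.74, 15.7 and 15.6 in tumors, and 11.5, 13.2 and 19.9 in resistant tumors. It fell by 1.52 ± 0.40 and 1.30 ± 0.40 (limma adjusted p = 0.0156 and 0.0309), and it lost both calls under quantile normalization and with equal array medians. Its signals were low, with a highest value of 42.0 where array medians were 13.9 to 25.8, and they reached the median on 6 of the 9 arrays.

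Other neighbours on chromosome 6 were read from the order of genes in RefSeq. Of the 3 genes on either side of Cd4 and of the adjacent Cd8a and Cd8b1, 8 of 12 had a probe set. Beside Cd4, Gpr162, an orphan receptor gene, fell from 382 to 473 in normal thymus to 65.5 to 102 in tumors and 74.5 to 84.2 in resistant tumors, by 2.39 ± 0.18 and 2.44 ± 0.18 (limma adjusted p = 1.58e-05 and 1.54e-05). P3h3, a collagen prolyl hydroxylase gene, rose by 1.03 and 0.84, and Ptms was not called (-0.35 and -0.37).

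Next to Cd8a, Rmnd5a, a subunit of a ubiquitin ligase, gave 2582, 2242 and 2404 in normal thymus, 554, 558 and 518 in tumors, and 522, 542 and 462 in resistant tumors. It fell by 2.15 ± 0.10 and 2.24 ± 0.10 (limma adjusted p = 1.70e-06 and 1.47e-06). Rnf103 fell by 0.96 and 1.06, Krcc1 was not called and Gm1070 was not tested for low signal. Neighbours of Cd4 thus moved in both directions, and none that fell beside Cd8 was under the array median in tumors. With equal array medians Rnf103 was called in neither comparison and P3h3 not in resistant tumors.

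Genes of the stages at which thymocytes gain and lose the coreceptors were then read as lists, against the shares of all genes called higher (22.2% in tumors and 22% in resistant tumors) and lower (18.1% and 19.2%). Of 15 double-negative stage genes, 7 were called higher and 3 lower in tumors and 8 and 3 in resistant tumors, with median changes of 0.22 and 1.01. Notch1 (1.61 and 1.46), Notch3 (2.10 and 1.99) and the Notch targets Hes1 and Nrarp, which mark the stages that depend on Notch signals, were called higher, 4 genes chosen after their values were seen. Ptcra, the invariant chain of the pre-T cell receptor, rose by 3.01 and 2.76, and Dtx1, a Notch target, by 3.71 and 3.34. Il7r, the interleukin 7 receptor chain that double-negative cells carry, fell by 3.79 and 3.04, and Bcl11a was lower by at least 1.85-fold and 1.56-fold. The genes of this list therefore did not move one way.

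Of 10 double-positive stage genes tested, none was called higher and 7 were called lower in tumors and 8 in resistant tumors, with medians of -1.33 and -1.63, against 18.1% and 19.2% of all genes called lower. Ccr9, a chemokine receptor of double-positive cells, fell by 7.37 and 6.80, and the changes of Rag2, a recombinase subunit, and of Bcl6, a repressor, were -3.19 and -3.85 in tumors and -2.52 and -3.39 in resistant tumors. Cd2, an adhesion receptor, was lower by at least 28.4-fold and 23.9-fold. Dntt and Arpp21 were not called in either comparison. With equal array medians 4 of the calls in tumors were left.

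Of 11 single-positive stage genes tested, 10 were called lower in tumors and 9 in resistant tumors (18.1% and 19.2% of all genes) and none higher, with medians of -3.56 and -3.06, or -2.55 and -2.62 with the 4 genes that have only a bound set to it. Cd6, Ms4a4b, Slfn1 and Ccr7 were lower in tumors by at least 22.7-fold, 20.3-fold, 2.60-fold and 4.96-fold. Of 6 immature single-positive stage genes, Tfrc (1.06), the transferrin receptor, and Slc3a2 (1.05), a chain of amino acid transporters, were called higher in tumors and Sox4 (-0.40) lower. In resistant tumors 3 were higher and 1 lower.

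Of the CD8 lineage genes 6 were tested, and 4 were called lower in both comparisons (18.1% and 19.2% of all genes) and none higher. Nkg7, Klrd1 and Itgae were lower in tumors by at least 6.61-fold, 3.71-fold and 6.71-fold, and Ccl5 fell by 4.37. Of 5 CD4 lineage genes tested, Cd5, St8sia1 (-2.53) and Zbtb7b were called lower in tumors and none higher. In resistant tumors these 3 were called lower, St8sia1 at -3.47, and Ctla4, an inhibitory receptor of activated and regulatory T cells, was called higher at 1.29, with 219.6, 71.8 and 118 against 45.5 to 55.7 in normal thymus, a call that was lost with equal array medians. None of the stage or lineage genes was called between resistant tumor and tumor. With spike-in set fitted as a block 2 of them were, Runx3 and the Notch target Nrarp (-0.66, limma adjusted p = 0.0201).

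**Figure D4:**
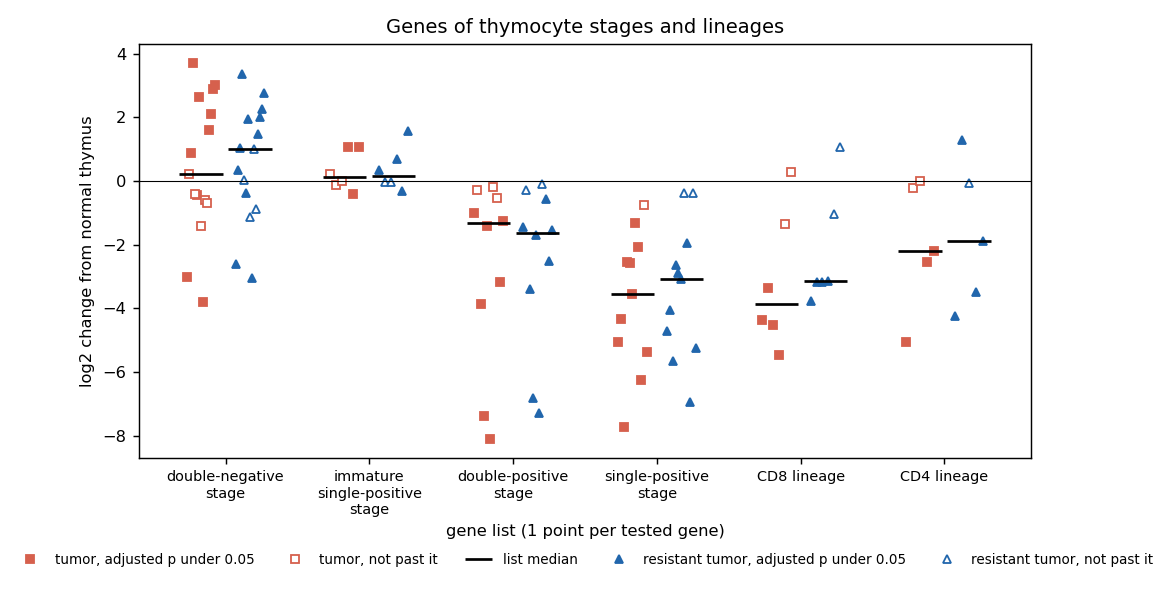
Log2 change from normal thymus (y axis) of each tested gene of 4 stage lists and 2 lineage lists (x axis), in tumors (squares) and resistant tumors (triangles), filled where the adjusted p was under 0.05, with bars at list medians. Values of genes under the array median in tumors are fitted values and have only a bound, and the single-positive list lies below 0 throughout while the double-negative list spreads on both sides.

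Markers of other cells of the thymus were read in the same way, where 18.1% of all genes were called lower and 22.2% higher in tumors, and 19.2% and 22% in resistant tumors. Those of epithelial, B and dendritic cells included genes called lower, and those of fibroblasts and endothelium genes called higher. Of 10 thymic epithelial genes, which encode proteins of the cells that select thymocytes, 10 were called lower in tumors and 9 in resistant tumors, and their summed signal was 8429 to 8971 in normal thymus, 178 to 282 in tumors and 206 to 321 in resistant tumors. Psmb11 and Pax1 were under 5 on all 6 tumor arrays. B cell genes were lower for 4 of 4 tested and 1 of 4, with sums of 235 to 272 against 17.9 to 91.3 and 42.9 to 94.4, and dendritic cell genes for 4 of 5 and 3 of 5, with sums of 601 to 639.9 against 65.3 to 120.0 and 84.4 to 116.

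Macrophage genes were lower for 1 of 8 in each comparison, with sums of 1791 to 2207 against 1231 to 2126 and 1296 to 2446, and neither of 2 natural killer cell genes tested was called. Fibroblast genes were higher for 3 of 6 and 4 of 6, with sums of 1050 to 1153 against 2239 to 5217 and 2671 to 6563, and endothelial genes for 3 of 5 in each, with 1 lower in tumors and sums of 303 to 321 against 402 to 584 and 439 to 737. Of 2 erythroid genes tested, 1 was lower in each, with sums of 79.2 to 109.6 against 24.3 to 50.8 and 43.2 to 65.8. The summed signal of the pan T cell genes was 16967 to 18268 in normal thymus, 13301 to 15515 in tumors and 12350 to 14666 in resistant tumors. The part of these changes in cell composition in the coreceptor results was not tested.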

How the data were processed

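Signals are intensities on a linear scale, deposited by the authors for 9 arrays in 3 groups, and the submitters' processing notes name MAS5. Its version, its scaling target and its detection calls were not given in the sources used here. The number of arrays limits the precision. Gene symbols came from the platform annotation: of the probe sets that are not among 64 control rows, 34945 had 1 symbol, 932 several and 9160 were not listed, and 18032 of 18193 symbols matched RefSeq (GRCm38.p6). On tumor array 1 the control rows stood in another order than on the others. They were put back in order, by sorted row name, before the spike-in controls were read. Their correlation with the mean of the other arrays was -0.295 as deposited and 0.907 after that. The spike-in mean of 2.01 on tumor array 1, and its place among the arrays without spike-ins, rest on this order. No control row was tested.

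Signals under 1 were set to 1 and log2 taken. limma 3.58.1 (R 4.3.3) fitted group means over all 9 arrays, with an intensity trend, to 24873 probe sets at or above the array median on at least 3 arrays, with Benjamini-Hochberg adjustment. The fit was tested on simulated data. A gene was read by its brightest probe set. Same-numbered arrays of normal thymus and tumor deviated together (r = 0.706, 0.422 and 0.454). No label pairs the arrays, and the main fit was unpaired. With the number as a block 8 of 8 coreceptor probe sets were called in tumors. These numbers divide those arrays as the spike-in sets do, so that pairing and spike-in set cannot be told apart.

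The members, lists and tests were chosen with earlier results of these data known. Each list names its 4 called genes with the largest change in tumors, each chromosome neighbour within 3 genes, and the 5 most alike genes; for regulators, partners and Lag3 any measured gene could be named. The pan T cell genes beyond that, the Notch genes, Ctla4, Dntt and Arpp21 were named after their values were seen. Some genes stand on more than 1 list. Alternatives covered normalization (quantile, equal array medians), offset, floor, filters, trend, groups fitted, blocks and leaving out each array. Lck was not analysed here.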

Additional observations from a re-analysis of the deposited data

How the results depend on the processing

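In tumors and resistant tumors the change of every coreceptor probe set was below 0 under every alternative run, and all but Cd8a 1440164_x_at were called in each of 18 to 20 tests. That probe set was called in 19 of 19 tests in tumors and in 9 of 19 in resistant tumors. Total counts of probe sets called moved more: from 8638 in tumors to 4653 with equal array medians, 5513 with a filter at the 75th percentile, 4916 with 1 probe set per gene and 13276 with the spike-in sets blocked, and from 8880 in resistant tumors to 4336, 5787 and 5025 under the first 3. Between the tumor groups 36 became 13 with equal medians (1 higher and 12 lower, against 17 and 19), 8 with no filter, 23 with the stricter filter, 3 with only those groups fitted and 222 with the spike-in block, under which 1 coreceptor probe set, Cd8b1, was called; leaving out 1 array gave 5 to 43. Same-numbered arrays did not all deviate together between resistant tumors and normal thymus (r = 0.485, -0.406 and 0.555) or tumors (0.594, -0.368 and 0.562). With the replicate block 99 probe sets and no coreceptor were called between the tumor groups. Under that block Cd8a 1440164_x_at was called in resistant tumors (limma adjusted p = 0.0244).

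The difference of Cd4 1419696_at between the tumor groups turned to 0.072 without resistant tumor 1 and was at its lowest -0.71 without another array. Relative to the pan T cell genes it turned to 0.050 without resistant tumor 1, with a lowest value of -0.75, and to 0.038 with coreceptors set to the array median. Leaving out 1 array gave shifts of -4.98 to -4.59 for Cd4, -6.84 to -6.35 for Cd8a and -7.45 to -7.01 for Cd8b1 relative to those genes, from signals that for the last 2 are under the array median in tumors, with too few arrays for the exact test to pass after adjustment. With equal array medians 4 and 5 regulators were called in the 2 comparisons with normal thymus, 1 and 1 immature single-positive genes, 4 double-positive genes in tumors and 2 CD4 lineage genes in resistant tumors; Lag3, the only CD4 relative, gave 0 calls there and under quantile normalization. Over all genes the median change went from 0.05 to 0.24 in tumors under equal medians, and from -0.02 to -0.26 between the tumor groups. The spike-in block for the lists, the array median floor and the shorter pan T cell lists were chosen after seeing the data. Where a signal is under the array median, the size of a drop is only bounded.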
